A study of Homo sapiens with 18 samples.

Results

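The genes described here were 6 genes of cell contact and channel exchange: the connexin genes GJA1, GJB2, GJB5 and GJB6, the pannexin gene PANX1 and the protocadherin gene PCDH7. They were found as the rows of the deposited count tables whose Ensembl identifier maps to these symbols, and 6 of the 60764 identifiers present in either table were theirs. RNA was sequenced from H1650 and PC9 cells, in 3 groups per line with 3 libraries each; both lines come from human lung adenocarcinomas driven by mutant EGFR. All groups were brain-metastatic derivatives of the parent lines: Tr-BrM cells labelled S100A9-inh, Tr-BrM cells labelled control, and BrM cells labelled control. The sources used here do not explain Tr, the means of S100A9 inhibition or whether a derivative is 1 clone, so the groups are named as labelled.

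Connexins are membrane proteins that assemble into channels, and docking of channels from adjoining cells forms a gap junction through which ions and small molecules pass. GJA1 encodes Cx43, a widely expressed connexin and the main one of astrocytes, together with Cx30, the product of GJB6. GJB2 encodes Cx26, and GJB5 encodes a connexin of stratified epithelia. Pannexin 1, the product of PANX1, forms channels that release ATP and does not normally form gap junctions. Protocadherin 7, the product of PCDH7, is an adhesion protein. In earlier mouse and cell work on brain metastasis it was described as favouring Cx43 gap junctions between cancer cells and astrocytes, through which cGAMP passes and activates STING in the astrocytes.

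Depth per library was 17.40 to 27.11 M counts for H1650 and 18.17 to 21.75 M counts for PC9. The unit CPM is a count scaled to a library of 1 M after TMM adjustment. S100A9 ranged from 88.2 to 105 CPM in the H1650 S100A9-inh libraries, against 292 to 336 CPM in Tr-BrM controls and 199 to 217 CPM in BrM controls. In PC9 the same gene ranged from 30.4 to 35.5 CPM in S100A9-inh libraries, 738 to 759 CPM in Tr-BrM controls and 119 to 127 CPM in BrM controls. The target was therefore lowest in the libraries labelled as inhibited, in both lines. Epithelial markers summed to between 9704 and 11538 CPM in H1650 and between 20747 and 27452 CPM in PC9, led by keratins, whereas the lung lineage factor NKX2-1 averaged at most 0.351 CPM in any group. Replicate 1 of PC9 S100A9-inh stood apart from replicates 2 and 3. The labels do not tie the libraries of a group to separate cultures, and p-values then reflect only the spread among these libraries, which may be technical.

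In H1650, Tr-BrM control cells held far more RNA of GJA1, GJB2, GJB6, GJB5 and PCDH7 than BrM control cells, and less of PANX1. PCDH7 averaged 89.9 ± 1.8 CPM in Tr-BrM controls and 18.3 ± 0.41 CPM in BrM controls (SD, n = 3 each). GJA1 averaged 34.4 ± 1.1 CPM in Tr-BrM controls and 2.05 ± 0.55 CPM in BrM controls. PANX1 averaged 26.5 ± 2.0 CPM in Tr-BrM controls and 61.5 ± 2.0 CPM in BrM controls. Of the 17937 tested genes, 64.0% were called at an adjusted p under 0.05, so a call alone says little about these genes. GJA1, GJB5, PCDH7 and PANX1 were called. GJB2 and GJB6 reached the filter's minimum of 0.437 CPM in all libraries of the Tr-BrM groups but not of BrM control, so that they had to differ to be tested, and their values against BrM control are given as a description.

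GJA1, GJB2 and GJB6 had the largest rises, and the stretches of 250 bases before their annotated starts are shown because these genes rose together in H1650 Tr-BrM control against BrM control, although they parted with S100A9 inhibited. The sequences are those of RefSeq on GRCh38.p14, in which 5 of the 6 genes matched. GJA1 is on the plus strand (chr6:121435396-121435645), and GJB2 (chr13:20192939-20193188) and GJB6 (chr13:20230979-20231228) are on the minus strand. Capitals mark matches, on either strand, to the AP-1 motif TGACTCA in GJA1 and to the GC box GGGCGG in GJB2.
GJA1: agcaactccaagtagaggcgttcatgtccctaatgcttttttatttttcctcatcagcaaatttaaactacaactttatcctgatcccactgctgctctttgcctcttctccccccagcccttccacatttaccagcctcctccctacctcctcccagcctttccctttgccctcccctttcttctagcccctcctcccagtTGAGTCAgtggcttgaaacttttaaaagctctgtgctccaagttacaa
GJB2: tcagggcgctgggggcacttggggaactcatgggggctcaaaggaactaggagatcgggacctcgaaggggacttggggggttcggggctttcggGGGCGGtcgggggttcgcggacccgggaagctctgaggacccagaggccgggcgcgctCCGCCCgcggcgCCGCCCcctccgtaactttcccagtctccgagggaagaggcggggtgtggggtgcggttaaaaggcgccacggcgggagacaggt
GJB6: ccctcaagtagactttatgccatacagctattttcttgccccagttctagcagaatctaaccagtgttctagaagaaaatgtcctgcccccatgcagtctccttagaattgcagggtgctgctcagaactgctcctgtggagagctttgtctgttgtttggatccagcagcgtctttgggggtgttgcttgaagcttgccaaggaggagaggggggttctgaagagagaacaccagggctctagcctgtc
The window of GJA1 held 1 AP-1 match, which reads TGAGTCA on the gene's strand and begins 48 bases before the start. Over all 35116 promoters of the table, 4.2% held this motif in a window of the same length. The window of GJB2 held 3 GC boxes, beginning 155, 97 and 85 bases before the start, with those at 97 and 85 read on the opposite strand (CCGCCC), and 42.6% of all promoters held at least 1. The window of GJB6 matched none of the 5 motifs searched. The others were the E-box CACCTG (17.5% of promoters), the TEAD motif GGAATG (11.9%) and TATAAA (10.7%), none of which matched in the windows shown. GJB2 had 25 CpG dinucleotides and 70% G+C in its window, against 1 CpG and 48% in GJA1 and 1 CpG and 50.8% in GJB6. The median promoter had 11 CpG and 58% G+C. GJB2 thus lay above the median, whereas GJA1 and GJB6 were close to each other and below it. The start used for GJB6 lies 1417 bases inside the outermost start of GENCODE 29, against 69 bases for GJA1 and 72 bases for GJB2.

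GJB6 went furthest in fold. It had 12.3, 14.6 and 12.1 CPM in the H1650 Tr-BrM control libraries, against 0.226, 0.0455 and 0.118 CPM in BrM controls, where the 3 libraries held 8 counts in all. The log2 fold change fitted by edgeR was 6.58 ± 0.24 (SE), a fold of 95.7 that rests on those few counts. It was 7.30 without BrM control replicate 1 and 6.14 without BrM control replicate 2, so either library moved the fold considerably.

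GJA1, the gene of Cx43, had 35.7, 33.9 and 33.6 CPM in Tr-BrM controls and 1.58, 1.91 and 2.66 CPM in BrM controls of H1650. The groups lay far apart, and even the lowest Tr-BrM library was many times above the highest BrM library. The log2 fold change was 4.10 ± 0.10 (SE; adjusted p = 5.78e-34, edgeR's quasi-likelihood test), or 17.1-fold. GJA1P1, a processed pseudogene of GJA1 that could share its reads, held 0 to 6 counts in any library of H1650.

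GJB2 had 9.15, 9.51 and 9.09 CPM in Tr-BrM controls and 0.361, 0.546 and 0.710 CPM in BrM controls. The BrM control libraries held 8, 12 and 12 counts. The fitted change was 4.13 ± 0.19 on the log2 scale, or 17.5-fold. GJB5 had 16.1, 13.2 and 15 CPM in Tr-BrM controls and 4.52, 4.32 and 4.67 CPM in BrM controls. Its change was smaller, at 1.71 ± 0.11 (adjusted p = 7.19e-19, edgeR), or 3.27-fold, with a higher starting level in BrM.

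PCDH7 had 87.8, 91.2 and 90.6 CPM in Tr-BrM controls and 18.6, 18.5 and 17.9 CPM in BrM controls, with libraries of a group close to each other. It rose by 2.29 ± 0.052 (adjusted p = 1.37e-35, edgeR), or 4.90-fold. PANX1 was the one gene of the 6 that was lower in Tr-BrM, at 26.1, 24.9 and 28.7 CPM in Tr-BrM controls and 59.3, 62.2 and 63.1 CPM in BrM controls. Its log2 fold change was -1.22 ± 0.055 (adjusted p = 6.35e-24, edgeR), which is 2.32-fold lower. The libraries of the groups did not overlap for any of the 6 genes, nor for 67.5% of tested genes, and for GJB2 and GJB6 the filter itself required a difference.

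**Figure D1:**
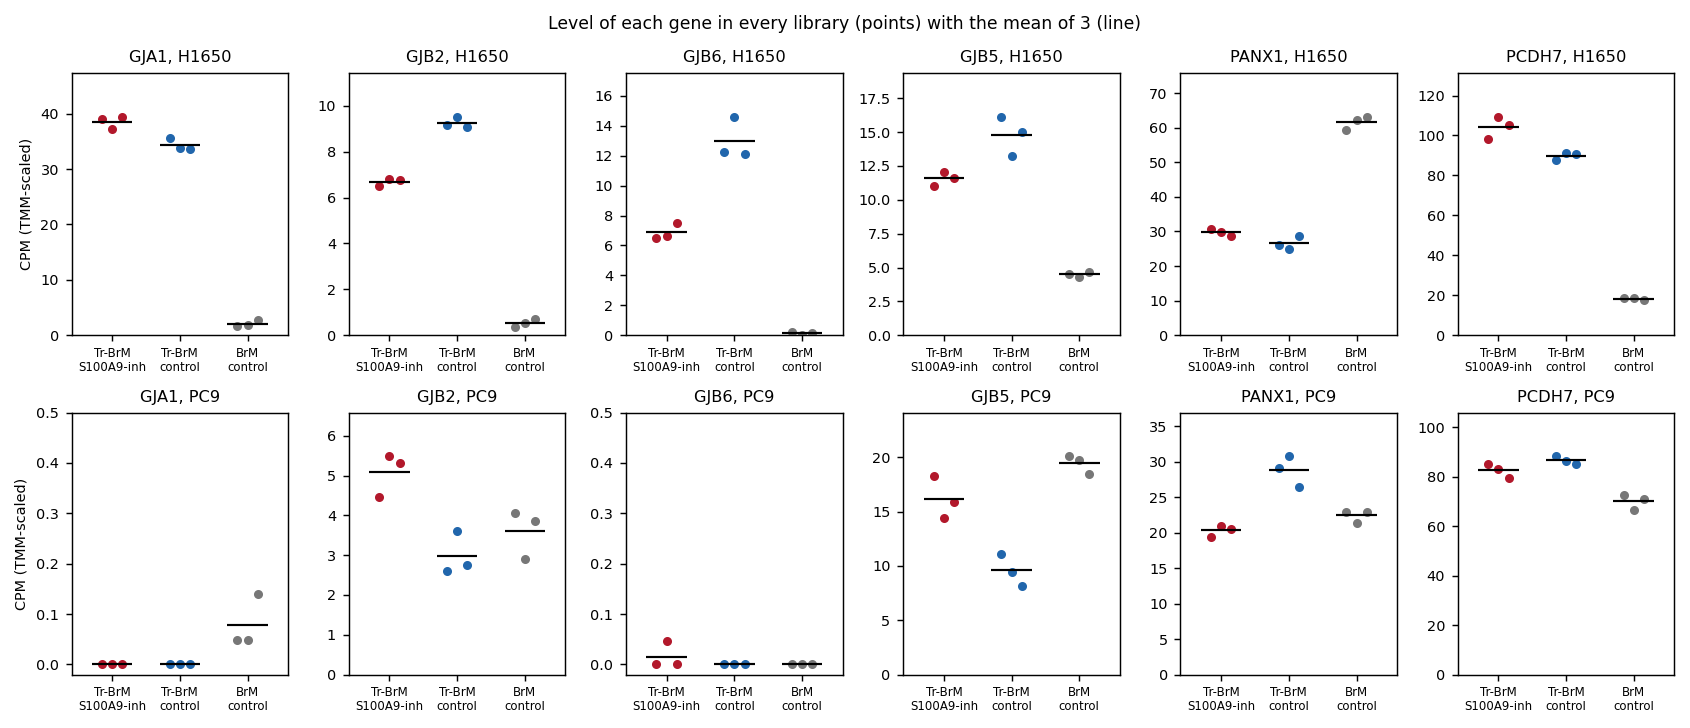
Level in CPM (TMM-scaled, linear axes that differ between panels) of each gene in each of 18 libraries (points) with the mean of 3 (line), H1650 above and PC9 below. In H1650, 5 genes are low in BrM control and high in both Tr-BrM groups and PANX1 is the reverse; in PC9, GJA1 and GJB6 are at or near 0 on an axis that ends at 0.5 CPM.

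Markers of cell types other than epithelium also moved in H1650. Of 11 tested astrocyte markers, 8 rose and 1 fell in Tr-BrM control against BrM control, where 64.0% of all tested genes were called. AQP4 and SLC1A2 reached the filter's minimum in 1 of these groups and not the other. The 12 markers summed to 462 to 519, 666 to 688 and 294 to 301 CPM in S100A9-inh, Tr-BrM control and BrM control libraries. The largest part was GLUL, at 288 ± 25, 399 ± 6.4 and 246 ± 1.5 CPM. SLC1A3 followed at 141 ± 2.4, 165 ± 5.1 and 23.4 ± 0.59 CPM. GFAP, a commonly used astrocyte marker, averaged 31.7 ± 7.8, 63.2 ± 11 and 8.68 ± 5.5 CPM in the same groups, and no marker of the list was at 0 throughout a group. Of the 11 tested astrocyte markers, 1 rose and 6 fell in S100A9-inh against Tr-BrM control, where 29.5% of all tested genes were called. AQP4 reached the filter's minimum in 1 of these groups alone here as well. Fibroblast markers summed to 183 to 192, 161 to 182 and 23.9 to 24.4 CPM, with 7 of 8 tested genes risen in Tr-BrM control against BrM control, and 3 risen and 1 fallen in S100A9-inh against Tr-BrM control. Leukocyte markers summed to 12 to 13, 15.2 to 20.8 and 3.28 to 4.43 CPM, with CD68 at 0 in all S100A9-inh libraries. Endothelial markers summed to 11.5 to 16.2, 10.1 to 12.2 and 7.36 to 8.82 CPM, and neuron markers to 36.7 to 39.1, 28.8 to 29.7 and 52.1 to 54.6 CPM. The part of these cell types in the results was not tested. In bulk RNA, more cells of a type and more RNA per cell cannot be told apart.

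With S100A9 inhibited, the 4 connexin genes of H1650 split. GJB6, GJB2 and GJB5 fell, while GJA1 was slightly higher, as were PANX1 and PCDH7. All 6 genes were called, against 29.5% of tested genes, and no gene's groups overlapped, as for 39.2%. This comparison shares its Tr-BrM control libraries with the one above, so that the signs of the changes are not independent between them.

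GJB6 had the largest change, with 6.5, 6.62 and 7.51 CPM in S100A9-inh and 12.3, 14.6 and 12.1 CPM in Tr-BrM control libraries. It fell by 0.92 ± 0.11 on the log2 scale (adjusted p = 2.96e-09, edgeR), a level 1.90-fold lower. GJB2 had 6.5, 6.79 and 6.75 CPM in S100A9-inh and 9.15, 9.51 and 9.09 CPM in Tr-BrM controls, a log2 change of -0.47 ± 0.11 (adjusted p = 0.000777, edgeR). GJB5 had 11.1, 12.1 and 11.6 CPM in S100A9-inh and 16.1, 13.2 and 15 CPM in Tr-BrM controls, a change of -0.35 ± 0.088 (adjusted p = 0.00186, edgeR). All 3 stayed above BrM control: against it, S100A9-inh cells were higher by 5.66 ± 0.27 for GJB6, 3.65 ± 0.19 for GJB2 and 1.36 ± 0.11 for GJB5. Leaving out a library gave 5.22 to 6.38 for GJB6, lowest without BrM control replicate 2 and highest without BrM control replicate 1. GJB5 was called by edgeR, as were 63.4% of tested genes, and the values of the other two are a description for the reason given above.

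PCDH7 had 98.2, 109 and 105 CPM in S100A9-inh and 87.8, 91.2 and 90.6 CPM in Tr-BrM control libraries. It rose by 0.21 ± 0.041 (adjusted p = 5.29e-05, edgeR), or 1.16-fold, with no overlap between groups. GJA1 had 39.0, 37.2 and 39.4 CPM in S100A9-inh and 35.7, 33.9 and 33.6 CPM in Tr-BrM controls, a change of 0.17 ± 0.060 (adjusted p = 0.0295, edgeR). PANX1 had 30.7, 29.9 and 28.8 CPM in S100A9-inh and 26.1, 24.9 and 28.7 CPM in Tr-BrM controls, a change of 0.17 ± 0.059 (adjusted p = 0.0215, edgeR). These last 2 calls were narrow. The GJA1 call was lost with DESeq2 (adjusted p = 0.121), with scaling by library size alone (0.0928), and without S100A9-inh replicate 1 (0.0829) or 3 (0.117) or Tr-BrM control replicate 2 (0.112) or 3 (0.102). The PANX1 call was lost with DESeq2 (0.0809), with library size alone (0.0730), and without S100A9-inh replicate 1 (0.0911) or Tr-BrM control replicate 1 (0.0646) or 2 (0.199).

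Against BrM control, the H1650 S100A9-inh cells were also higher in GJA1 by 4.26 ± 0.10 and in PCDH7 by 2.50 ± 0.051, and lower in PANX1, with a log2 change of -1.04 ± 0.053, all called by edgeR. The order of the group means was S100A9-inh, Tr-BrM control, BrM control for GJA1 and PCDH7, with the first 2 groups close together. For GJB2, GJB5 and GJB6 it was Tr-BrM control, S100A9-inh, BrM control.

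In PC9, GJA1 and GJB6 were barely detected. GJA1 had 0 counts in all 6 Tr-BrM libraries, those with S100A9-inh and the controls, and 1, 1 and 3 counts in the BrM control libraries. GJB6 had 1 count in the 9 libraries together, in an S100A9-inh library. A count of 0 allows up to 3 counts, or at most 0.161 CPM in the shallowest library, and covers counting error only. Both genes failed the filter on low counts and were not tested, which leaves 4 of the 6 genes tested in PC9.

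In PC9, Tr-BrM control cells held less GJB5 RNA than BrM control cells, and somewhat more PANX1 and PCDH7. Of the 4 tested genes, 3 were called, where 59.9% of the 16169 tested genes were called. GJB5 had 11.1, 9.44 and 8.18 CPM in Tr-BrM controls and 20.1, 19.7 and 18.5 CPM in BrM controls, and fell by 1.02 ± 0.10 on the log2 scale, 2.03-fold (adjusted p = 3.15e-10, edgeR). PANX1 had 29.2, 30.8 and 26.4 CPM in Tr-BrM controls and 22.9, 21.4 and 23.0 CPM in BrM controls, a rise of 0.36 ± 0.075 (adjusted p = 9.89e-05, edgeR). PCDH7 had 88.3, 86.3 and 85.1 CPM in Tr-BrM controls and 72.7, 66.7 and 71.1 CPM in BrM controls. It rose by 0.30 ± 0.049 (adjusted p = 2.46e-06, edgeR), or 1.23-fold. GJB2 had 2.6, 3.6 and 2.76 CPM in Tr-BrM controls and 4.07, 2.92 and 3.86 CPM in BrM controls. These groups overlapped, and the log2 change of -0.27 ± 0.18 did not pass the test (adjusted p = 0.205, edgeR).

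With S100A9 inhibited, PC9 cells held more GJB2 and GJB5 RNA and less PANX1 RNA than the Tr-BrM controls. Of the 4 tested genes 3 were called, against 52.5% of all tested genes, and the control libraries are again those of the preceding comparison. GJB2 had 4.45, 5.49 and 5.32 CPM in S100A9-inh and 2.6, 3.6 and 2.76 CPM in Tr-BrM control libraries, a rise of 0.76 ± 0.17 (adjusted p = 0.000389, edgeR). GJB5 had 18.3, 14.4 and 15.9 CPM in S100A9-inh and 11.1, 9.44 and 8.18 CPM in Tr-BrM controls, a rise of 0.76 ± 0.11 (adjusted p = 3.50e-07, edgeR). Nor did the groups of PANX1 overlap, at 19.5, 21.0 and 20.6 CPM in S100A9-inh and 29.2, 30.8 and 26.4 CPM in Tr-BrM controls. PANX1 fell by 0.50 ± 0.076 (adjusted p = 1.09e-06, edgeR), the third gene whose groups were separate, as they were for 56.3% of tested genes. PCDH7 had 85.2, 83.1 and 79.4 CPM in S100A9-inh and 88.3, 86.3 and 85.1 CPM in Tr-BrM controls. The highest S100A9-inh library lay just above the lowest Tr-BrM control, and the difference of -0.07 ± 0.049 did not pass (adjusted p = 0.247, edgeR).

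Against BrM control, PC9 S100A9-inh cells were higher in PCDH7 by 0.23 ± 0.049 (adjusted p = 0.000168, edgeR) and in GJB2 by 0.49 ± 0.17 (adjusted p = 0.0156, edgeR). They were lower in GJB5, with a log2 change of -0.26 ± 0.097 (adjusted p = 0.0252, edgeR). PANX1 differed by -0.14 ± 0.077 and did not pass (adjusted p = 0.136, edgeR), although its libraries did not overlap, as those of 52.9% of tested genes did not. Thus 3 of 4 genes were called, against 46.4% of all tested. The GJB5 call was lost with DESeq2 (0.0807), upper quartile scaling (0.0714), library size alone (0.0537), and without S100A9-inh replicate 2 (0.170) or 3 (0.0619) or BrM control replicate 1 (0.0864) or 2 (0.0708). The GJB2 call was lost with DESeq2 (0.0773) and without S100A9-inh replicate 2 (0.0705) or BrM control replicate 2 (0.121). In PC9, 3 of 7 tested astrocyte markers rose and 1 fell in Tr-BrM control against BrM control, where 59.9% of all tested genes were called. SLC1A2 and ALDH1L1 reached the filter's minimum in 1 of these groups and not the other. The 12 astrocyte markers summed to 165 to 173, 222 to 231 and 129 to 134 CPM in S100A9-inh, Tr-BrM control and BrM control. SLC1A3 averaged 34.1 ± 1.7, 97.6 ± 3.1 and 15.1 ± 0.53 CPM in these groups. FGFR3 averaged 24.7 ± 2.7, 44.4 ± 2.4 and 12.9 ± 1.3 CPM. GLUL averaged 85.6 ± 2.1, 61.2 ± 2.0 and 78.6 ± 1.2 CPM, and GFAP at most 0.151 CPM. AQP4, S100B, MLC1 and SLC4A4 were at 0 in all 6 Tr-BrM libraries. All 3 tested endothelial markers rose as well, with summed levels of 23.6 to 28.4, 40.7 to 41.4 and 22.9 to 26.6 CPM in the same groups, and both tested leukocyte markers rose, with sums of 3.65 to 4.89, 5.62 to 6.76 and 1.46 to 1.95 CPM. Both tested fibroblast markers fell, with sums of 17.3 to 20.1, 12.8 to 15.1 and 26.7 to 27.2 CPM, and 8 of 9 tested epithelial markers fell, with sums of 21928 to 24143, 20747 to 21294 and 26966 to 27452 CPM. Neuron markers, none of 2 tested called, summed to 6.77 to 7.84, 7.30 to 8.33 and 7.15 to 8.99 CPM. The part of the markers in these results was not tested.

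**Figure D2:**
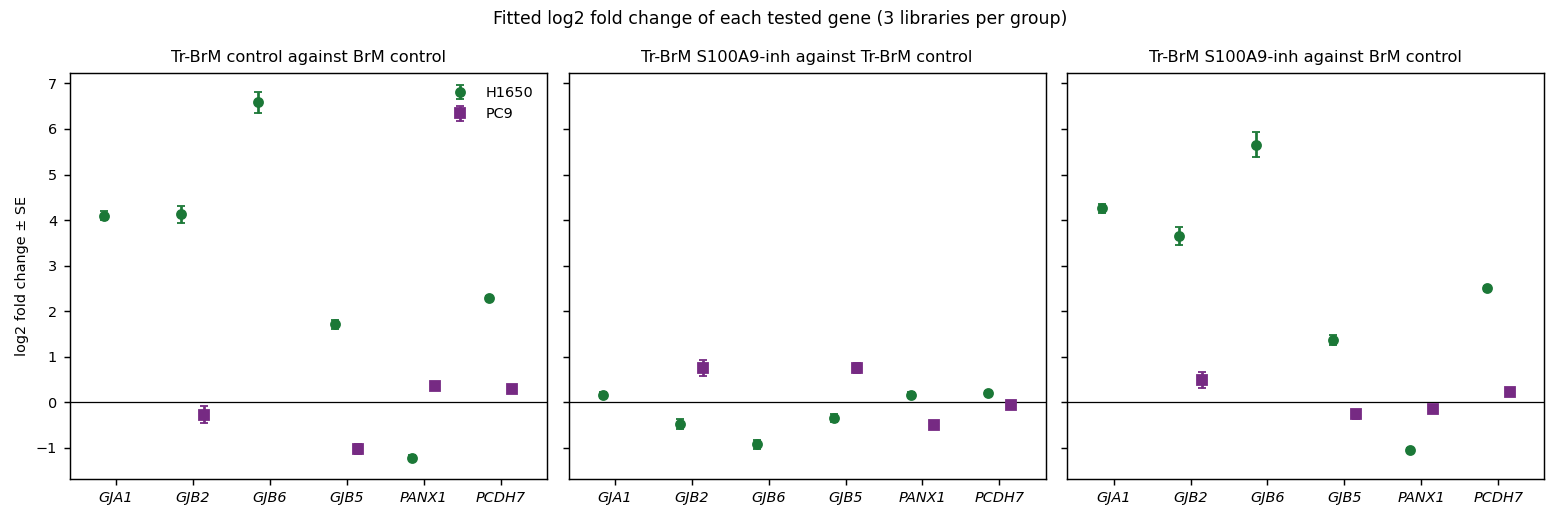
Fitted log2 fold change with its standard error for each tested gene in the 3 comparisons, H1650 as green circles and PC9 as purple squares (3 libraries per group). The rises of GJA1, GJB2 and GJB6 above 4 in H1650 Tr-BrM control have no match in PC9, where GJA1 and GJB6 were not tested, and with S100A9 inhibited GJB2 and GJB5 lie below 0 in H1650 and above 0 in PC9.

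The change of each gene tested in both lines was set against the other line by an interaction term, PC9 minus H1650, in 1 edgeR model of 18 libraries. All 4 genes differed in Tr-BrM control against BrM control, where 54.7% of the 19076 genes of that model did. All 4 also differed in S100A9-inh against Tr-BrM control, against 40.4% of genes, and in S100A9-inh against BrM control, against 50.4%. Under S100A9 inhibition the changes of GJB2, GJB5 and PANX1 had opposite signs in the lines. GJB2 differed by 1.24 ± 0.20, GJB5 by 1.11 ± 0.14 and PANX1 by -0.67 ± 0.096 on the log2 scale. Since the lines differ in many ways, including the sets of libraries sequenced, what goes with the difference was not tested.

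Levels of the 6 genes were compared with each other per kilobase of exon. In H1650 S100A9-inh cells GJA1 (11.3 ± 0.35 CPM per kilobase) and PANX1 (10.8 ± 0.35) lay within their spread, as did GJB5 (8.54 ± 0.38) and PCDH7 (8.50 ± 0.46), above GJB2 (2.62 ± 0.062) and GJB6 (2.08 ± 0.17). In H1650 Tr-BrM control cells GJB5 (10.9 ± 1.1 CPM per kilobase), GJA1 (10.1 ± 0.33) and PANX1 (9.59 ± 0.71) lay within each other's spread, followed by PCDH7 (7.34 ± 0.15). GJB6 (3.94 ± 0.42) and GJB2 (3.63 ± 0.090) came last and did not differ beyond their spread. In H1650 BrM control cells PANX1 led at 22.2 ± 0.71, ahead of GJB5 (3.32 ± 0.13), PCDH7 (1.5 ± 0.033), GJA1 (0.601 ± 0.16), GJB2 (0.212 ± 0.068) and GJB6 (0.0394 ± 0.027), each apart from the next. Of the 6 genes in PC9, GJB5 was highest in S100A9-inh (11.9 ± 1.5) and BrM control (14.3 ± 0.63), and PANX1 was highest in Tr-BrM control (10.4 ± 0.81).

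Of the 24 connexin and pannexin genes, 13 were tested in H1650, and 6 rose, GJB2 and GJB6 included, 4 fell and 3 did not pass in Tr-BrM control against BrM control, where 64.0% of all genes were called. In PC9, 10 were tested, of which 3 rose, 4 fell and 3 did not pass, with 59.9% of all genes called. The median was -0.11 in PC9, against 0.0014 over all tested genes. GJA5, the gene of Cx40, rose in both lines. It averaged 15.6 ± 0.66, 19.7 ± 0.32 and 3.48 ± 0.31 CPM in S100A9-inh, Tr-BrM control and BrM control of H1650, and 5.43 ± 1.1, 19.7 ± 1.4 and 6.69 ± 0.44 CPM in PC9. The rise in Tr-BrM control against BrM control was 2.49 ± 0.10 in H1650 and 1.56 ± 0.11 in PC9, and the change with S100A9 inhibited was -0.34 ± 0.076 and -1.85 ± 0.12, all called by edgeR.

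GJC1, the gene of Cx45, fell in both lines. It averaged 10.2 ± 0.65, 8.40 ± 0.26 and 50.5 ± 2.4 CPM in S100A9-inh, Tr-BrM control and BrM control of H1650, a fall by 2.59 ± 0.072 in Tr-BrM control against BrM control. In PC9 it averaged 21.6 ± 0.90, 20.03 ± 1.1 and 34.4 ± 1.8 CPM, a fall by 0.78 ± 0.073, and edgeR called both. PANX2, a pannexin gene known from brain, went the other way from PANX1 in each line: it rose by 0.55 ± 0.12 in H1650 and changed by -0.35 ± 0.073 in PC9, both called by edgeR. With S100A9 inhibited, 5 of the 13 family genes rose and 4 fell in H1650, and 3 of 10 rose and 2 fell in PC9, where 29.5% and 52.5% of all genes were called. Among other genes at 1 CPM or more, GJA3 fell by 0.77 ± 0.23 in H1650 Tr-BrM control, GJD2 rose by 0.43 ± 0.15 with S100A9 inhibited in H1650 (both called by edgeR), and GJD3 passed in neither comparison in either line.

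**Figure D3:**
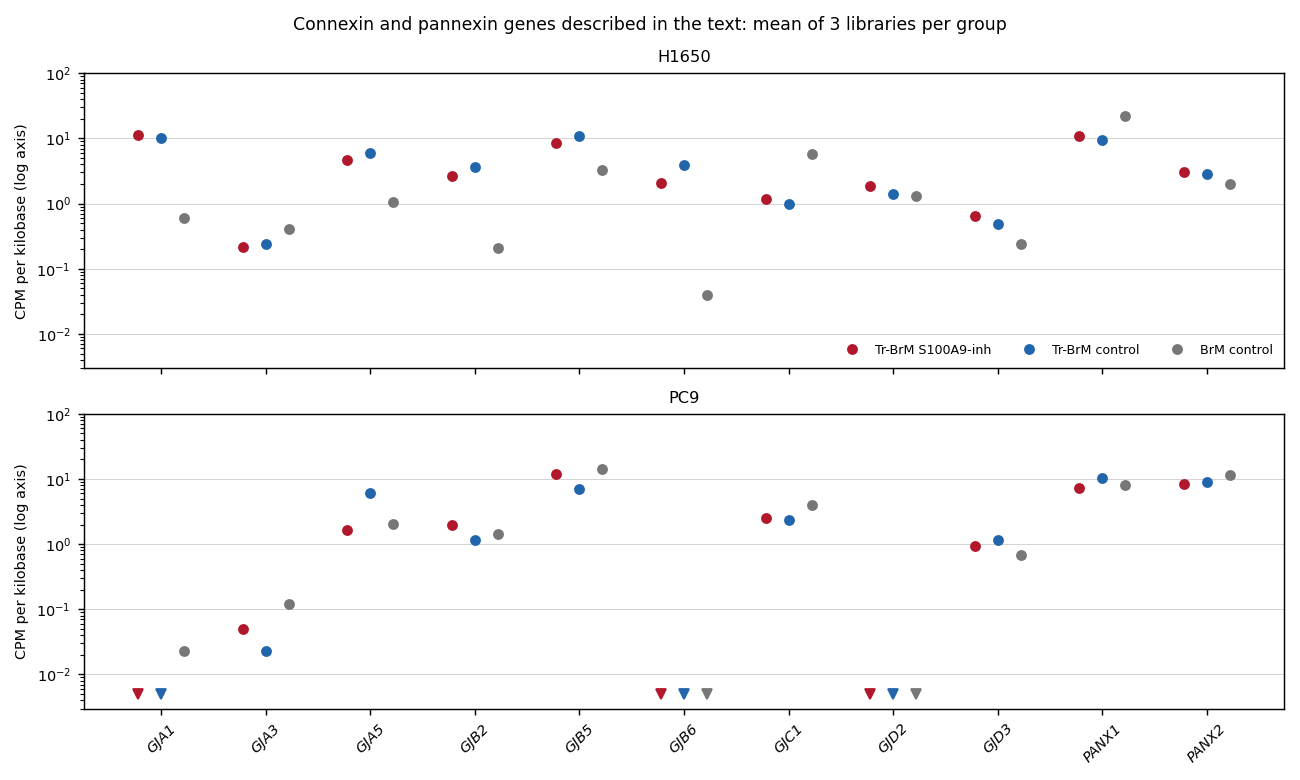
Mean level in CPM per kilobase of exon (log axis) of the connexin and pannexin genes described here, for S100A9-inh (red), Tr-BrM control (blue) and BrM control (grey) libraries, 3 per group. Triangles at the bottom stand for means under 0.005; GJA1 and GJB6 are near 10.1 and 3.94 in H1650 Tr-BrM control, whereas both Tr-BrM groups of PC9 are at the bottom.

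Protocadherins other than PCDH7 also differed in H1650. Of 12 non-clustered protocadherins 8 were tested, and 5 rose and 2 fell in Tr-BrM control against BrM control, beside 64.0% of all genes called. PCDH10, PCDH12 and PCDH19 reached the filter's minimum in all libraries of 1 of these groups and not of the other, so the count is no support. PCDH18 averaged 25.7 ± 1.2, 27.2 ± 1.1 and 1.59 ± 0.19 CPM in S100A9-inh, Tr-BrM control and BrM control, and had no count in PC9. PCDH9 averaged 9.44 ± 0.26, 9.07 ± 0.80 and 1.2 ± 0.20 CPM in the same groups. PCDH18, PCDH9 and PCDH10 rose by 4.09 ± 0.11, 2.94 ± 0.16 and 3.06 ± 0.33 in Tr-BrM control (fitted by edgeR), the last with 2.07 ± 0.29 CPM in Tr-BrM control and 0.245 ± 0.067 CPM in BrM control. PCDH1, an epithelial protocadherin gene, moved in opposite directions in the lines. It averaged 95.1 ± 2.9, 124 ± 1.1 and 205 ± 2.9 CPM in S100A9-inh, Tr-BrM control and BrM control of H1650, and 359 ± 32, 308 ± 13 and 178 ± 3.0 CPM in PC9. Its changes in Tr-BrM control were -0.73 ± 0.034 in H1650 and 0.79 ± 0.047 in PC9, both called by edgeR; the difference itself was not tested. In PC9, 3 protocadherins were tested, and 2 of them, PCDH7 and PCDH1, rose, whereas PCDH12 changed by 0.46 ± 0.33 and did not pass.

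The phosphatase partners of PCDH7, SET and subunits of the phosphatases PP1 and PP2A, moved little. All 6 fell in H1650 Tr-BrM control against BrM control (64.0% of all genes called), with a median of -0.21, against -0.0011 over all tested genes. SET, an inhibitor of PP2A that PCDH7 is reported to bind, averaged 587 ± 13 CPM in Tr-BrM controls and 663 ± 5.2 CPM in BrM controls, a change of -0.18 ± 0.029. In PC9, 3 rose and 2 fell (59.9% of all genes called), and SET averaged 524 ± 9.7 CPM in Tr-BrM controls and 408 ± 2.4 CPM in BrM controls, a rise of 0.36 ± 0.039 (both called by edgeR). With S100A9 inhibited, 1 of 6 rose and 5 did not pass in H1650, while 2 rose and 2 fell in PC9, beside 29.5% and 52.5% of all genes called.

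Genes that anchor, modify or degrade Cx43 were tested in full, 18 in each line. In H1650 Tr-BrM control against BrM control 9 rose and 5 fell (median 0.09), beside 64.0% of all genes called, and in PC9 4 rose and 11 fell (median -0.26), beside 59.9%. The medians over all tested genes were -0.0011 and 0.0014. SRC, a kinase that phosphorylates Cx43, averaged 186 ± 3.3, 239 ± 4.6 and 59.1 ± 1.3 CPM in S100A9-inh, Tr-BrM control and BrM control of H1650, and 84.3 ± 3.2, 65.9 ± 2.6 and 129 ± 1.7 CPM in PC9. It rose by 2.01 ± 0.036 in H1650 Tr-BrM control and fell by 0.97 ± 0.047 in PC9 (both called by edgeR). TJP1, the scaffold ZO-1 that binds the tail of Cx43, changed by 0.27 ± 0.034 in H1650 and -0.20 ± 0.042 in PC9. CAV1, a caveolar protein, averaged 525 ± 22, 416 ± 4.9 and 605 ± 11 CPM in S100A9-inh, Tr-BrM control and BrM control of H1650. CDH2, the adhesion protein N-cadherin, stood out in PC9, with 3.53 ± 0.50 CPM in S100A9-inh, no count in any Tr-BrM control library and 40.1 ± 1.7 CPM in BrM control, so that it had to differ to be tested. In H1650 CDH2 averaged 5.98 ± 0.30, 3.19 ± 0.52 and 1.57 ± 0.058 CPM in the same groups. With S100A9 inhibited, 8 of the 18 genes rose and 3 fell in H1650, and 6 rose and 6 fell in PC9, beside 29.5% and 52.5% of all genes called.

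Of the genes by which released ATP is sensed and degraded, 15 of 16 were tested in H1650, where 6 rose and 6 fell in Tr-BrM control against BrM control, and 14 in PC9, where 2 rose and 7 fell. The shares of all genes called were 64.0% and 59.9%, and P2RX7 and P2RY1 reached the filter's minimum in 1 of the H1650 groups alone. P2RY2, an ATP and UTP receptor, averaged 93.4 ± 1.6, 96.8 ± 4.9 and 39.8 ± 1.5 CPM in S100A9-inh, Tr-BrM control and BrM control of H1650, and 92.1 ± 4.4, 68.7 ± 1.6 and 106 ± 2.8 CPM in PC9. In Tr-BrM control it was 2.43-fold higher in H1650 and changed by -0.63 ± 0.048 on the log2 scale in PC9. P2RY6, a UDP receptor, changed by 1.12 ± 0.13 in H1650 and -1.86 ± 0.085 in PC9. NT5E, the ecto-enzyme CD73 that makes adenosine, changed by -0.59 ± 0.065 in H1650 and was 2.22-fold higher in PC9, all of these called by edgeR. With S100A9 inhibited, 1 of 15 genes rose and 1 fell in H1650, and 4 of 14 rose and 4 fell in PC9, beside 29.5% and 52.5% of all genes called.

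The cGAS-STING list holds the sensor pathway described downstream of cGAMP and the receptors and factors of interferon and TNF signalling. In H1650 Tr-BrM control against BrM control 5 of 15 tested genes rose and 8 fell, beside 64.0% of all genes called, and in PC9 2 of 16 rose and 10 fell, beside 59.9%. The medians were -0.13 and -0.24. CGAS, the enzyme that makes cGAMP, averaged 10.7 ± 0.50, 8.41 ± 0.89 and 18.4 ± 1.7 CPM in S100A9-inh, Tr-BrM control and BrM control of H1650, a fall by 1.12 ± 0.093 in Tr-BrM control. In PC9 it averaged 18.4 ± 2.8, 15.7 ± 0.84 and 18.8 ± 1.8 CPM, a fall by 0.26 ± 0.097. STING1, the receptor of cGAMP, changed by -0.98 ± 0.050 in H1650 and 1.31 ± 0.13 in PC9, and STAT2 by 0.16 ± 0.035 and -1.38 ± 0.079, all called by edgeR. The transcripts of GJA1 and PCDH7 thus rose in H1650 where those of CGAS and STING1 fell. With S100A9 inhibited, 3 of 15 rose and 8 fell in H1650, and 8 of 16 rose and 1 fell in PC9, again beside 29.5% and 52.5%.

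**Figure D4:**
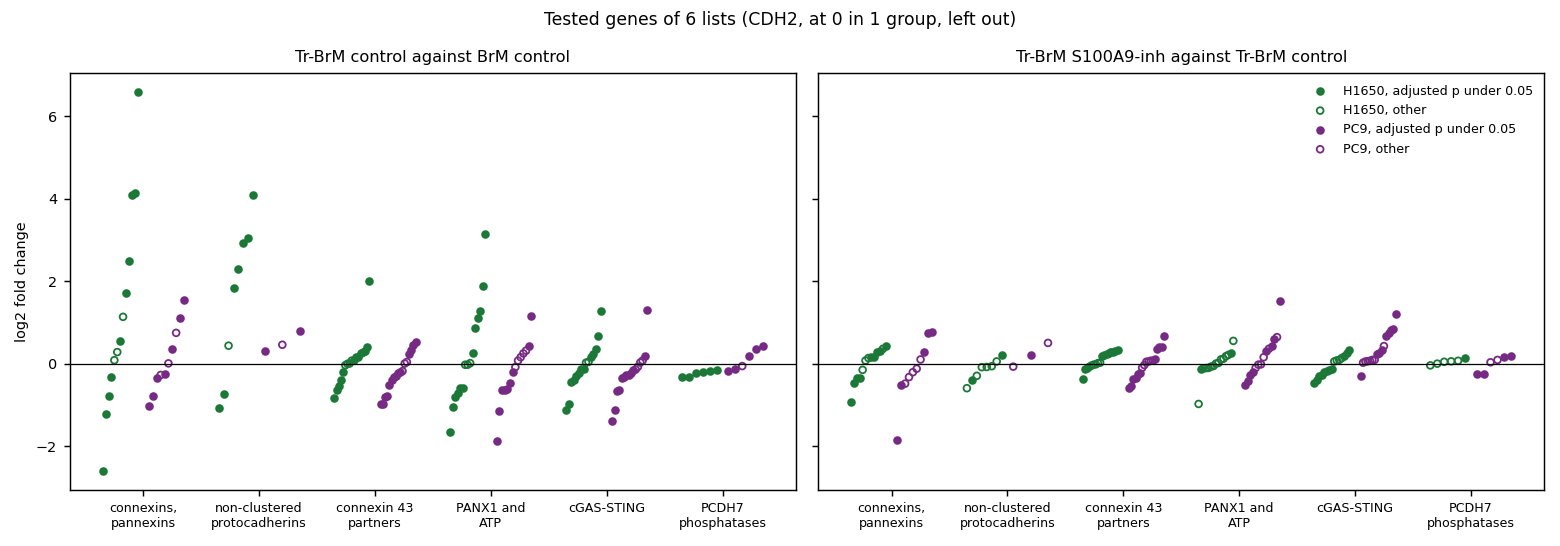
Log2 fold change of each tested gene of 6 lists, sorted within a list, for H1650 (green) and PC9 (purple), filled where the adjusted p was under 0.05. The left panel shows Tr-BrM control against BrM control and the right panel S100A9-inh against Tr-BrM control; connexins and protocadherins of H1650 reach 6.58 and 4.09 on the left, and CDH2, with no count in PC9 Tr-BrM control, is left out.

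The genes with the pattern closest to each of the 6 were found by the root mean square difference in log2(CPM + 1), centred within a line. Over 18 libraries and 9007 candidate genes, PCDH7 was closest to LONRF2 (0.067), RASEF (0.096) and INAVA (0.15). PANX1 was closest to TNFRSF12A (0.074), C3 (0.080) and LDLRAD3 (0.10), and GJB5 to APOBEC3C (0.14), FGD3 (0.15) and PAK6 (0.16). TNFRSF12A, for example, averaged 265 ± 2.9, 233 ± 1.5 and 525 ± 11 CPM in S100A9-inh, Tr-BrM control and BrM control of H1650, and 254 ± 10, 359 ± 17 and 294 ± 4.4 CPM in PC9. GJB2 was closest to SYK (0.18), TNXB (0.20) and TMEM125 (0.20). Over the 9 H1650 libraries and 10043 candidates, GJA1 was closest to LGALS14 (0.094), TENM3 (0.098) and ZBED2 (0.16), and GJB6 to HES2 (0.17), POF1B (0.17) and GLDC (0.19). With a pseudocount of 0.1 in place of 1, all 3 genes stayed the closest for PCDH7, PANX1 and GJB5, 1 of 3 for GJB2 and none for GJA1 and GJB6, which are low in BrM control. These are descriptions over libraries that share their groups, without a test.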

How the data were processed

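Libraries were made from poly-A RNA of the H1650 and PC9 groups, per the labels' protocols, and the authors deposited 1 table of raw counts per gene for each line, as whole numbers that are not normalized. STAR, GRCh38 and DESeq2 1.28.1 in R 4.0.1 are named in the submitters' processing notes. The sources used here give no counting tool, annotation release or use of strand. If strand was not used, a gene and its antisense partner cannot be told apart. An antisense gene lies within PCDH7, with 0 shared exon bases.

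For each line, edgeR 4.0.16 (R 4.3.3) was run on all 9 libraries: TMM, filterByExpr by group, robust quasi-likelihood test, Benjamini-Hochberg adjustment over all tested genes, threshold 0.05. Standard errors are the absolute log2 change over the square root of F. Interaction terms came from 1 model of 18 libraries. CPM per kilobase used merged exon lengths and symbols of GENCODE 29. No replicate pair was identical. Chi-square over its degrees of freedom was 1.54 to 6.51, highest for PC9 S100A9-inh replicate 1 (6.51 and 5.85, against 2.05 between replicates 2 and 3). The procedure was tested on simulated data. Alternatives were DESeq2 1.42.0, other scalings and filters, a fold threshold, and leaving out each library.

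The genes, the lists and the rule for named genes were chosen with earlier results of these data known. The rule names the 6 genes, other family members at 1 CPM or more (some genes under the rule are not reported here), up to 4 genes of each other list by smallest p, neighbouring genes, and the 3 closest patterns per gene. The choice among these for the text was made with their values known.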

Additional observations from a re-analysis of the deposited data

Results flagged for a closer look

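The 12 differences between the lines, PC9 minus H1650 on the log2 scale with their standard errors, passed edgeR's interaction test. For Tr-BrM control against BrM control they were -4.40 ± 0.28 for GJB2, -2.73 ± 0.15 for GJB5, 1.57 ± 0.093 for PANX1 and -1.99 ± 0.074 for PCDH7. GJB5, which rose in H1650 and fell in PC9, and PANX1, which fell in H1650 and rose in PC9, had called changes of opposite sign, whereas PCDH7 rose in both lines by different amounts. For S100A9-inh against Tr-BrM control the differences were 1.24 ± 0.20 for GJB2, 1.11 ± 0.14 for GJB5, -0.67 ± 0.096 for PANX1 and -0.28 ± 0.064 for PCDH7. For S100A9-inh against BrM control they were -3.16 ± 0.28 for GJB2, -1.62 ± 0.15 for GJB5, 0.90 ± 0.094 for PANX1 and -2.27 ± 0.073 for PCDH7. The 3 contrasts share libraries, and GJB2 was low in H1650 BrM control, with 8 to 12 counts per library. GJA1 and GJB6 were not tested in PC9 and have no such value.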

How the results depend on the processing

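No direction reversed under any alternative. Of 240 changes within a line under other settings, 220 kept their outcome, called or not called, and 20 lost a call. With a library left out, 13 of 180 lost a call. Between the lines, 82 of 84 and 144 of 144 differences kept their call. The calls lost other than under the fold threshold were those of GJA1 and PANX1 in H1650 S100A9-inh against Tr-BrM control and of GJB2 and GJB5 in PC9 S100A9-inh against BrM control. Leaving out a library gave 1 to 3 called genes of the 4 in that PC9 comparison and DESeq2 gave 1; without S100A9-inh replicate 1, the library that stood apart, all 3 calls held. A test against a log2 change of 0.5 moved the counts by its construction. For Tr-BrM control against BrM control it called 4904 genes in H1650, 2992 in PC9 and 5504 between the lines, for S100A9-inh against Tr-BrM control 341, 1742 and 2080, and for S100A9-inh against BrM control 4643, 1432 and 4440. Of the genes described, it called 1 in H1650 S100A9-inh against Tr-BrM control, 1 and 1 in PC9 Tr-BrM control against BrM control and S100A9-inh against Tr-BrM control, 0 in PC9 S100A9-inh against BrM control, and 2 between the lines for S100A9-inh against Tr-BrM control. The labels give a different library code to every library and tie none to a library of another group, so no paired analysis was possible. Replicate numbers used here only count the libraries within a group. Low counts limit GJB6 in H1650 BrM control and GJA1 and GJB6 in PC9.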

Other observations

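GJB6 and GJB2 lie 28951 bp apart on chromosome 13, with GJA3 on the other side of GJB2 at 26413 bp and CRYL1, which encodes a crystallin-like metabolic enzyme, 171270 bp from GJB6 (GRCh38, GENCODE 29). The neighbours did not move as one, since GJA3 went the other way in H1650 Tr-BrM control. In H1650 Tr-BrM control against BrM control CRYL1 rose by 1.72 ± 0.19, at 4.44 ± 0.20 CPM in Tr-BrM controls and 1.34 ± 0.14 CPM in BrM controls, whereas GJA3 fell by 0.77 ± 0.23. In PC9, CRYL1 fell by 0.67 ± 0.14 in Tr-BrM control and rose by 0.86 ± 0.13 with S100A9 inhibited, where GJB2 rose by 0.76 ± 0.17 (all called by edgeR). With S100A9 inhibited in H1650, CRYL1 fell by 0.40 ± 0.15 (adjusted p = 0.0408, edgeR), as GJB2 and GJB6 fell. The nearest protein-coding genes of GJA1, TBC1D32 at 100831 bp and HSF2 at 949818 bp, changed by 0.41 ± 0.16 and 0.38 ± 0.12 in H1650 Tr-BrM control, against 4.10 for GJA1. Around PCDH7, STIM2 changed by -0.77 ± 0.062 and ARAP2 by 0.57 ± 0.052, against 2.29 for PCDH7.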
